A study of Mus musculus with 6 samples.

Results

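The 10 genes described here make, store or break down monoamine and GABA transmitters, and they were followed in KP1 cells, a mouse small cell lung cancer line. They were taken by name, for their roles in transmitter metabolism: Tph1, Tph2, Ddc, Th, Dbh, Maoa, Maob, Gad1, Gad2 and Slc18a1. Earlier results of these data were known when these genes and the further lists were chosen. Counts of called genes in them are therefore descriptive. All 10 were measured, each by 1 probe set, among 22180 genes with a probe set of their own on the array. N1ICD cells carried a vector for the Notch1 intracellular domain, the active form of the receptor, joined through an ires to GFP (3 arrays), and control cells carried the empty ires-GFP vector (3 arrays). Both groups were KP1 cells, a line derived from a mouse lacking Rb, p53 and p130, and both were sorted for GFP 48 hours after transfection. The labels call the samples of a group biological replicates of this single line. Expression was read on Affymetrix Mouse Gene 2.0 ST arrays and is given as log2 values, on which each unit is a doubling.

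Serotonin and the catecholamines are built in a short chain. A hydroxylase acts first and sets the rate, Tph1 or Tph2 on tryptophan and Th on tyrosine, and each hydroxylase needs the cofactor tetrahydrobiopterin. The decarboxylase Ddc then makes serotonin or dopamine, Dbh turns dopamine into noradrenaline, the transporter Slc18a1 (VMAT1) loads the amines into granules, and the mitochondrial oxidases Maoa and Maob break them down. GABA is made from glutamate by the decarboxylases Gad1 and Gad2. Pulmonary neuroendocrine cells, the cells that small cell lung cancer resembles, are known to store serotonin made through Tph1.

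The transfected gene checks the labels. Notch1 had values of 8.07, 7.49 and 7.72 on the N1ICD arrays, against 6.35, 6.20 and 5.96 on the control arrays, a log2 difference of 1.59 ± 0.17 (SE, adjusted p = 0.000889, limma). The line was checked against 14 neuroendocrine markers, of which 12 had a probe set of their own. Of these 12, 3 (Resp18, Chga and Ncam1) rose and 2 (Dll3 and Insm1) fell at an adjusted p under 0.05 (limma). By the same test 3.82% of all genes rose and 3.27% fell. The mean level of these 12 markers was 9.16 to 9.30 on the N1ICD arrays and 9.25 to 9.33 on the control arrays. The marker with the largest change was Dll3, a Notch ligand, which averaged 7.13 in N1ICD cells and 8.56 in control cells (-1.43 ± 0.15, adjusted p = 0.00085). The granule protein chromogranin A, Chga, averaged 12.5 in N1ICD cells and 11.8 in control cells. In RNA of pooled cells, fewer cells expressing a gene and less RNA per cell cannot be told apart.

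In N1ICD cells 3 of the 10 genes were lower and 0 were higher by the test, and the remaining 7 were not past its threshold (adjusted p under 0.05, limma, adjusted over all genes). At an unadjusted p under 0.05, 4 were lower and 0 higher, the added gene being Slc18a1. Over all 22180 genes, 2484 were lower and 1924 higher at that unadjusted cut. At the adjusted threshold, 3.27% of all genes fell and 3.82% rose. The genes that fell were Tph1, Th and Gad1, which begin serotonin, catecholamine and GABA synthesis. Tph2 (0.19) and Gad2 (0.01), which act at the same steps as Tph1 and Gad1, did not pass the test. The median difference of the 10 genes was -0.17, against -0.02 over all genes. The arrays of the groups did not overlap for 5 of the 10 genes, namely Tph1, Th, Gad1, Slc18a1 and Dbh. Of all genes, 26.1% had groups that did not overlap. Slc18a1 lay below the control arrays without passing the test, and Dbh lay above them without passing it.

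**Figure D1:**
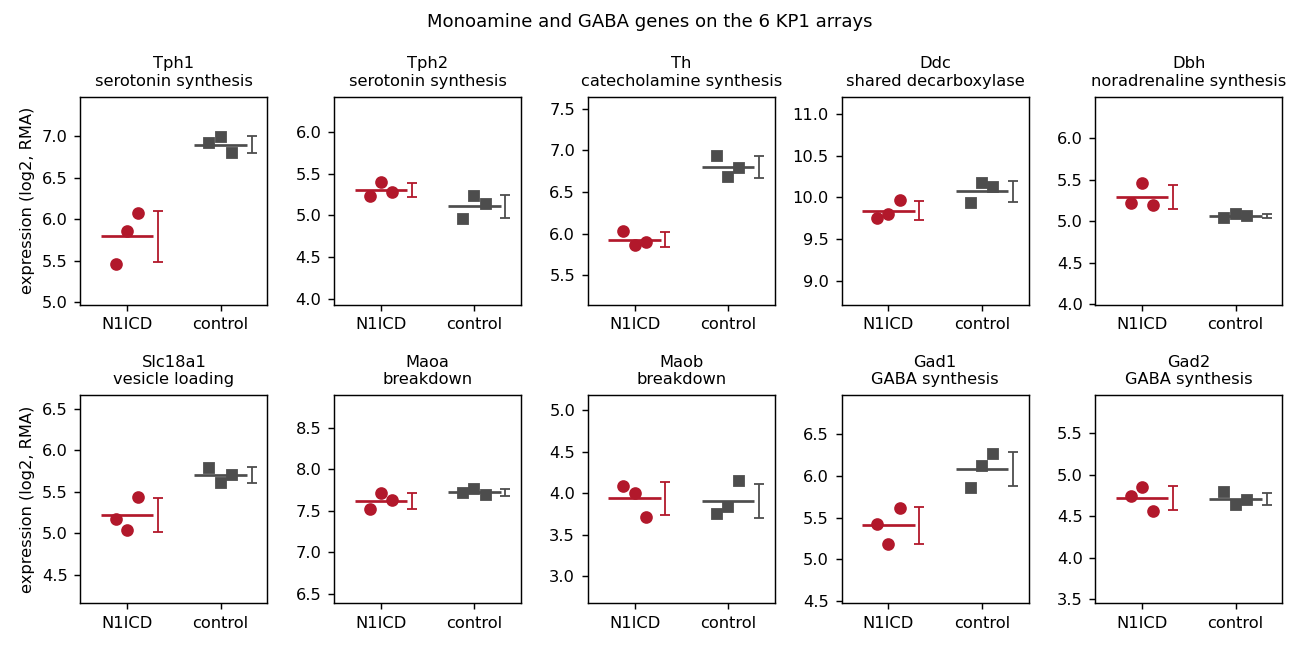
Log2 expression (RMA) of the 10 genes on each array, 1 panel per gene, with N1ICD arrays as red circles and control arrays as grey squares. Lines are group means, bars beside them are 1 SD (n = 3), and each panel spans the same number of log2 units. Tph1, Th, Gad1 and Slc18a1 have all N1ICD arrays below all control arrays.

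Because Tph1 and Th fell together, the sequence before their starts is shown. It is taken from RefSeq (build GRCm38.p6) as 250 bases ending just before the start, 5′ to 3′ on the minus strand of chromosome 7. RefSeq lists 2 starts for Tph1, whose windows are chr7:46672538-46672787 (outer start) and chr7:46667378-46667627 (inner start), and 1 for Th, with the window chr7:142899996-142900245. Capitals in the Th sequence mark TGACGTCA, the cyclic AMP response element, whose first base lies 45 bases before the start.
Tph1 outer start: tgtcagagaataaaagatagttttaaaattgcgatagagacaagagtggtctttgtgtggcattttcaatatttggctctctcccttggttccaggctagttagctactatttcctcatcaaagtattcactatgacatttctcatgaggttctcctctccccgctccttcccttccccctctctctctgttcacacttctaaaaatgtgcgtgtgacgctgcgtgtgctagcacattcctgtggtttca
Tph1 inner start: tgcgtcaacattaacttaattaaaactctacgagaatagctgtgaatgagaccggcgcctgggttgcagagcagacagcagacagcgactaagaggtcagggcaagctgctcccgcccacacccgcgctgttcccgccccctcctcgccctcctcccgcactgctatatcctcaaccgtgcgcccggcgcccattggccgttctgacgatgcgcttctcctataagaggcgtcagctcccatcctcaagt
Th start: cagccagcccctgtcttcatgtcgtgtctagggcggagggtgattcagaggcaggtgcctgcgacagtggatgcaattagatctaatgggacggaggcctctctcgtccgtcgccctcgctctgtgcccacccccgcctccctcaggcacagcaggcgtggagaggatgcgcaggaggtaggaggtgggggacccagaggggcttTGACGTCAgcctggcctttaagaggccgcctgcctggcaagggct

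Of the 10 genes, 8 had an entry, with 10 starts between them. The other 2 genes had no entry and were not searched. TGGGAA, the core of the motif of RBPJ, the DNA-binding partner of the Notch1 intracellular domain, was searched on both strands and occurred before 1 of these starts, that of Tph2, and before 21.6% of the 32851 starts in the table. The E-box CACGTG, a sequence that HES and HEY repressors can bind, was present before 0 of the 10 starts and before 6.02% of all starts. CAGCTG, another E-box form, was present before 0 of them and before 13.0% of all starts. TGACGTCA was added after the sequences had been seen. It was found before 1 of the 10 starts, that of Th, and before 1.55% of all starts. These are matches of letters in the windows searched and do not show binding or its absence.

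Tph1, the tryptophan hydroxylase of peripheral and neuroendocrine tissue, had values of 5.46, 5.86 and 6.07 on the N1ICD arrays, against 6.92, 6.98 and 6.79 on the control arrays. Every N1ICD array lay below every control array, and the N1ICD arrays were spread more widely (SD 0.31) than the control arrays (SD 0.098). The difference was -1.10 ± 0.16 (SE), a 2.14-fold lower level in N1ICD cells (adjusted p = 0.0044). It was the largest of the 10 differences and kept its call without any 1 array (-1.24 to -0.93, adjusted p up to 0.0216). The call was lost when the variance was not moderated across genes (adjusted p = 0.081).

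Tph2, the hydroxylase of brain serotonin neurons, had 5.23, 5.40 and 5.29 in N1ICD cells and 4.96, 5.23 and 5.14 in control cells. The groups overlapped at their edges, and its difference of 0.19 ± 0.11 did not pass the test (adjusted p = 0.383, 95% interval -0.06 to 0.44). Tph2 was dim, with both group means below the median of every array (5.59 to 5.72), where RMA compresses changes. The change of Tph1 minus that of Tph2, taken within each array, was -1.30. The exact two-sided permutation p for this gap was 0.1, the smallest that 3 against 3 arrays can give.

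Th, tyrosine hydroxylase and the entry to dopamine and noradrenaline, had 6.03, 5.86 and 5.90 on the N1ICD arrays, against 6.93, 6.68 and 6.79 on the control arrays. The groups were well apart, and both were tight. Th fell by 0.87 ± 0.11 on the log2 scale (1.83-fold, adjusted p = 0.00211), and the call was kept without any 1 array (adjusted p up to 0.013).

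Ddc, which acts after both hydroxylases, had 9.75, 9.80 and 9.97 in N1ICD cells and 9.93, 10.17 and 10.12 in control cells. N1ICD replicate 3 lay above control replicate 1, so the groups overlapped. The difference of -0.23 ± 0.11 did not pass the test (adjusted p = 0.292), and its 95% interval ran from -0.49 to 0.02. A loss of Ddc as large as that of Tph1 or Th lies outside that interval. Within arrays, the change of Tph1 minus that of Ddc was -0.87, and the change of Th minus that of Ddc was -0.64. Each had an exact permutation p of 0.1, the smallest possible here, and 0.1 after adjustment over the 4 pairs of genes compared. All 4 pairs were chosen after their values had been seen, so these p-values cannot tell them apart.

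Dbh, which makes noradrenaline in the granules of sympathetic and adrenal cells, had 5.22, 5.46 and 5.20 on the N1ICD arrays and 5.04, 5.09 and 5.06 on the control arrays. All N1ICD arrays lay above the control arrays by a small margin at a level below every array median. The difference was 0.23 ± 0.10 (adjusted p = 0.269, 95% interval -0.01 to 0.47).

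Slc18a1, the granule loader for serotonin and catecholamines in endocrine cells, had 5.17, 5.04 and 5.44 in N1ICD cells, against 5.79, 5.60 and 5.71 in control cells. The groups did not overlap, but the difference of -0.48 ± 0.12 missed the threshold (adjusted p = 0.0602), and the N1ICD mean of 5.22 lay below every array median. It passed with dim genes left out (adjusted p = 0.0285), with an intensity trend and robust eBayes (adjusted p = 0.0471), with array quality weights (adjusted p = 0.0491) and without N1ICD replicate 3 (-0.59, adjusted p = 0.0335). Over all alternatives its adjusted p ranged up to 0.189. Slc18a2 (VMAT2), the related loader of brain neurons and mast cells, had a difference of -0.05 ± 0.14 (adjusted p = 0.898) at a level below every array median.

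Maoa and Maob, neighbours on the X chromosome, degrade the amines. Maoa had 7.52, 7.71 and 7.63 in N1ICD cells and 7.72, 7.76 and 7.68 in control cells, and the groups overlapped. Its difference was -0.10 ± 0.10 (adjusted p = 0.633, 95% interval -0.32 to 0.12). For Maob the values were 4.09, 4.01 and 3.72 in N1ICD cells and 3.75, 3.84 and 4.14 in control cells, again with overlap. The difference of Maob was 0.03 ± 0.14 (adjusted p = 0.945) and its 95% interval ran from -0.30 to 0.36. Maob was far below the array medians, so a change of RNA in the cells could be compressed there.

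Gad1, the main GABA-producing decarboxylase of the cell body, had 5.43, 5.18 and 5.62 on the N1ICD arrays, against 5.86, 6.12 and 6.27 on the control arrays. The groups did not overlap, and the gap between the nearest arrays, N1ICD replicate 3 and control replicate 1, was smaller than the range within either group. The difference of -0.67 ± 0.15 (1.60-fold lower, adjusted p = 0.0335) passed the test. The N1ICD mean of 5.41 lay below every array median, so the size of the change may be compressed. The call of Gad1 was lost without control replicate 2 or 3 (adjusted p = 0.105 and 0.111) and without N1ICD replicate 1 or 2 (adjusted p = 0.0877 and 0.115). It was also lost with all probe sets tested (adjusted p = 0.115) and without moderation of the variance (adjusted p = 0.162).

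Gad2, the synaptic form of the enzyme, had 4.75, 4.85 and 4.56 in N1ICD cells and 4.79, 4.64 and 4.70 in control cells. The groups overlapped fully, both lay below every array median, and the difference was 0.01 ± 0.11 (adjusted p = 0.971, 95% interval -0.24 to 0.26). The change of Gad1 minus that of Gad2 was -0.69 within arrays. The groups nearly touched, with Gad1 minus Gad2 at most 1.06 on N1ICD arrays and at least 1.07 on control arrays. The exact permutation p was 0.1, the smallest that these arrays can give. This pair was chosen after its values had been seen, so that p cannot decide whether the changes differ. Gad1os, a transcript annotated on the opposite strand of Gad1 and named after its value was seen, had a difference of -0.12 (adjusted p = 0.633).

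**Figure D2:**
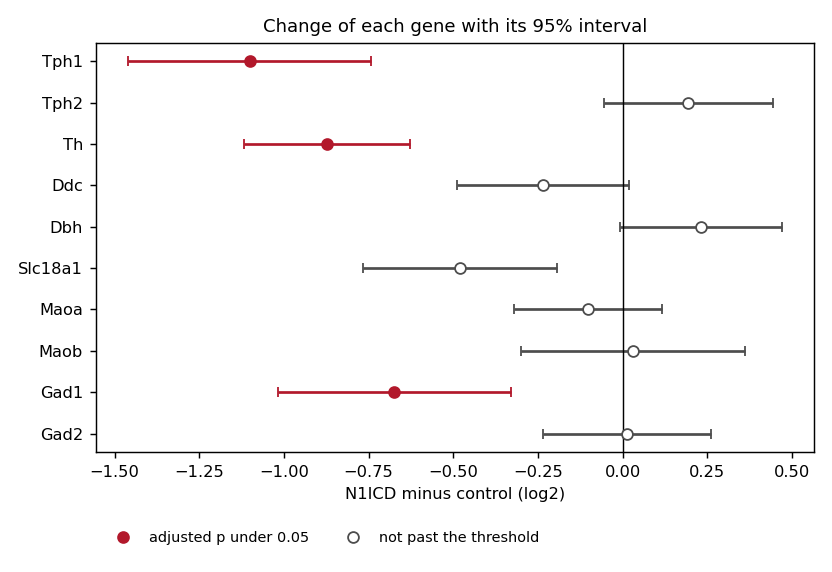
Difference of N1ICD minus control on the log2 scale for each of the 10 genes, with 95% intervals from limma for each gene on its own (3 arrays per group). Filled red points passed an adjusted p of 0.05, which were Tph1, Th and Gad1, and open points did not. The interval of Slc18a1 excludes 0, but its adjusted p over all genes was 0.0602.

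The wider pathway was described with 51 further genes in 5 lists, of which 44 had a probe set of their own. By the test 2 of them rose and 1 fell, and 41 were not past the threshold, so 6.82% were called, against 7.1% of all genes. Their median difference was -0.01.

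The fall was in the cofactor branch. Gch1, GTP cyclohydrolase, the rate-setting enzyme of tetrahydrobiopterin synthesis, had 6.75, 7.06 and 7.14 on the N1ICD arrays, against 8.02, 7.92 and 7.95 on the control arrays. All N1ICD arrays were lower, and the difference was -0.98 ± 0.12 (1.97-fold lower, adjusted p = 0.00234). Gch1 kept its call without any 1 array (adjusted p up to 0.0108) and lost it without moderation (adjusted p = 0.051). It was the only 1 of 7 measured cofactor genes that passed the test, and the median of these 7 was -0.07. Qdpr, which regenerates the cofactor, had 0.44 ± 0.11 with groups that did not overlap (adjusted p = 0.0548). That difference passed with quantile normalization again (adjusted p = 0.0307), with dim genes left out (adjusted p = 0.0252), with an intensity trend (adjusted p = 0.0222) and with array weights (adjusted p = 0.0426). Qdpr did not pass in the other alternatives, among them every fit with 1 array left out.

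Both rises concerned the removal of GABA. Slc6a11 (GAT3), a plasma membrane GABA transporter of glia, had 8.50, 8.22 and 8.40 on the N1ICD arrays, against 6.49, 6.11 and 5.74 on the control arrays. The groups were far apart, and Slc6a11 rose by 2.26 ± 0.18 on the log2 scale (4.78-fold, adjusted p = 0.000221). Abat, the GABA transaminase that begins GABA breakdown in mitochondria, had 8.75, 8.97 and 9.15 in N1ICD cells and 7.46, 7.42 and 7.60 in control cells. It rose by 1.46 ± 0.12 (2.75-fold, adjusted p = 0.000269), and at a second, dimmer probe set the difference was 1.01. Both kept their calls without any 1 array.

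The remaining GABA and glutamate handling genes did not pass the test. Of 11 measured, 2 rose and 0 fell in limma, with a median of 0.07. At an unadjusted p under 0.05, 4 were higher and 0 lower, the added genes being Slc6a13 (0.35) and Glul (0.28). Over all 22180 genes, 3.82% rose and 3.27% fell in limma, and 1924 were higher and 2484 lower at that unadjusted cut. Aldh5a1, which completes GABA breakdown after Abat, had -0.30 ± 0.13 (adjusted p = 0.253). The vesicular GABA transporter Slc32a1 had 0.19 ± 0.09 (adjusted p = 0.289) at a level below every array median. At a second, dimmer probe set of Slc32a1 the difference was -0.02.

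Of the 16 other measured monoamine genes, 0 passed the test in limma, 0 had an unadjusted p under 0.05, and their median was -0.06. The largest difference was that of Aanat, the enzyme that acetylates serotonin on the way to melatonin, with -0.34 ± 0.16 (adjusted p = 0.278). Of the 3 measured genes of pyridoxal phosphate, the cofactor of Ddc and of both GABA decarboxylases, 0 passed in limma and 1 had an unadjusted p under 0.05. That gene, with the largest difference, was Pdxp, a pyridoxal phosphate phosphatase, with -0.37 ± 0.11 (adjusted p = 0.0813). Pdxp passed with dim genes left out (adjusted p = 0.0394) and with an intensity trend (adjusted p = 0.0287), and in no other alternative. Of 7 acetylcholine and glutamate vesicle genes, 0 passed in limma, 1 (Slc18a3) was lower at an unadjusted p under 0.05, and 6 had control means below every array median. Slc17a6, a vesicular glutamate transporter, had the largest difference of these 7 (0.33 ± 0.17, adjusted p = 0.331). Over all 22180 genes, 2484 were lower and 1924 higher at an unadjusted p under 0.05.

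**Figure D3:**
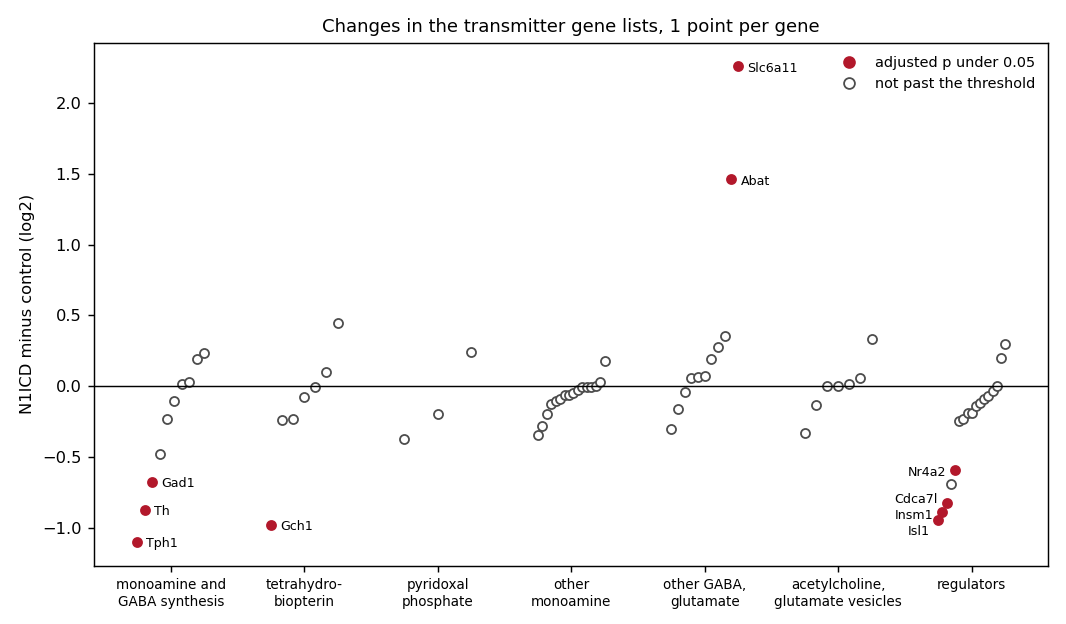
Difference of N1ICD minus control (log2) for each measured gene of 7 lists, 1 point per gene, ordered by size within its list. Filled red points with names passed an adjusted p of 0.05, and open points did not. Slc6a11 and Abat stand above all other points, and Tph1 has the lowest value.

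Several listed regulators of transmitter identity or of single transmitter genes fell. Of 22 listed, 17 were measured, and 4 of them were lower, 0 higher and 13 not past the threshold, with a median of -0.19. Of all genes, 3.27% fell and 3.82% rose. At an unadjusted p under 0.05, 5 were lower and 1, Rest, was higher, against 2484 lower and 1924 higher of all 22180 genes. Isl1, a homeodomain factor of sympathetic and motor neurons, fell by 0.95 ± 0.13 on the log2 scale (adjusted p = 0.00325). Insm1, a zinc finger factor required for monoamine-producing endocrine and neural cells in mice, fell by 0.89 ± 0.15 (adjusted p = 0.0101). Nr4a2 (Nurr1), an activator of Th in midbrain dopamine neurons, had 6.68, 6.75 and 6.73 on the N1ICD arrays, against 7.25, 7.27 and 7.42 on the control arrays. It fell by 0.59 ± 0.09 (adjusted p = 0.008). Cdca7l, known from human cells as a repressor of Maoa, fell by 0.82 ± 0.14 (adjusted p = 0.0121), and that call was lost with all probe sets tested (adjusted p = 0.056). Without moderation the adjusted p was 0.0581 for Isl1, 0.101 for Insm1 and 0.105 for Cdca7l. Rest, a repressor of neuronal genes, had 0.30 ± 0.10 (adjusted p = 0.15). Whether these factors act on the transmitter genes was not tested.

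The genes most like each changed gene were found by the root mean square difference over the 6 arrays, after each gene was centred on its own mean. For Tph1 they were Gch1 (0.11 log2 units), the sialyltransferase St8sia4 (0.15) and the cyclic nucleotide phosphodiesterase Pde1b (0.16). Gch1 and Tph1 shared their lowest array, N1ICD replicate 1, which had the lowest quality weight of the 6 arrays (0.59). A similar profile follows from the choice by nearness. Nearest to Th were Rapgef5, an exchange factor for Rap GTPases (0.052), Ppp1r14b, an inhibitor of protein phosphatase 1 (0.060), and Fbxo32, a ubiquitin ligase subunit (0.068). Gad1 had Gatm, an enzyme of creatine synthesis (0.060), Fancb, a DNA repair gene (0.063), and Svip (0.067) as its nearest genes. All 9 of these genes fell, which follows from choosing them by nearness to genes that fell. Nearness says nothing of shared function or control.

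**Figure D4:**
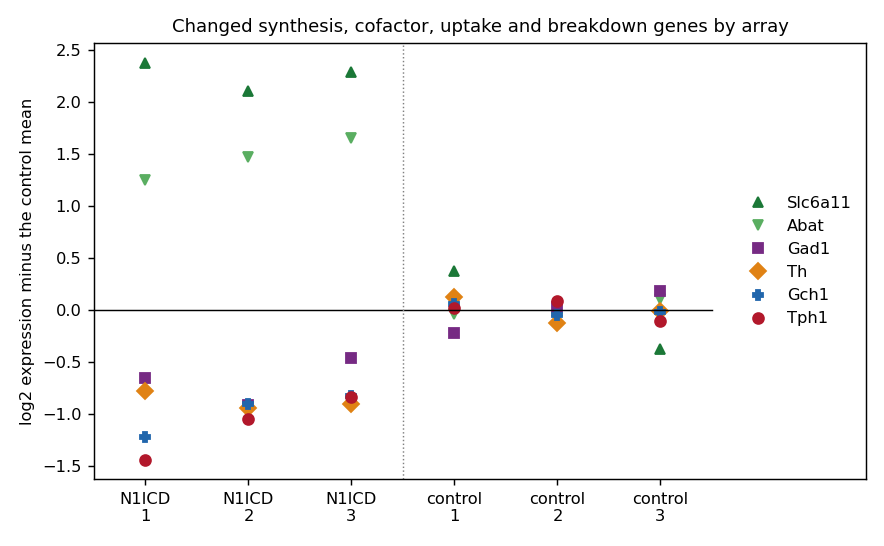
Log2 expression of Slc6a11, Abat, Gad1, Th, Gch1 and Tph1 on each array minus the mean of the gene over the 3 control arrays. The N1ICD arrays are on the left, where Slc6a11 and Abat are above 0 and Gad1, Th, Gch1 and Tph1 are below 0. Tph1 and Gch1 are lowest on N1ICD replicate 1, the array with the lowest quality weight (0.59).

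Mast cells also make and store serotonin, so their markers were set beside Tph1. Of 8 mast cell markers, 1 fell and 0 rose in limma, against 3.27% and 3.82% of all genes. At an unadjusted p under 0.05, 3 were lower and 2 higher, against 2484 and 1924 of all 22180 genes. The marker past the adjusted threshold was Kit (-1.15 ± 0.14, adjusted p = 0.00242), a receptor tyrosine kinase that small cell lung cancer cells are also known to express. The other 7 markers, Cpa3, Fcer1a, Ms4a2, Mcpt4, Cma1, Tpsb2 and Tpsab1, had control means below every array median. The 8 markers had a mean level of 4.34 to 4.39 on the N1ICD arrays and 4.54 to 4.63 on the control arrays, without overlap. Without Kit their mean level was 3.73 to 3.85 on the N1ICD arrays and 3.83 to 3.91 on the control arrays, which overlap. Of 6 macrophage markers 1 rose (Lyz2), of 5 fibroblast markers 1 fell (Pdgfra), and of 4 endothelial markers 2 rose (Kdr and Tek). Of 7 measured housekeeping genes, 0 passed the test in limma, 1 (Ywhaz) had an unadjusted p under 0.05, and their median was 0.13. The part of other cell types in these results was not tested.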

How the data were processed

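Total RNA of 6 samples was hybridised to 1 array each. The authors deposited log2 values after RMA for 41345 probe sets; the submitters' processing notes name RMA, with no version. Base 2, which RMA uses, was assumed because no source used here states the base, and the highest value (14.1) exceeds the natural log of a 16-bit maximum (11.1). RMA equalises the arrays, so differences in overall RNA content are not visible.

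Each gene was read from the probe set with the highest 6-array mean among the 23521 probe sets with exactly 1 symbol in the platform annotation; 22180 genes resulted and dim ones were kept. The difference of N1ICD minus control was fitted by limma 3.58.1 (R 4.3.3; moderated statistics from lmFit and eBayes, two-sided, Benjamini-Hochberg over all genes, threshold 0.05), a fit also tested on simulated data. Each ± is an SE unless given as SD. Intervals are 95%, per gene and unadjusted. Gaps between the changes of 2 genes had exact permutation tests over the 20 assignments of arrays (SciPy 1.17.1). Figures used matplotlib 3.10.9.

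Array medians were 5.59 to 5.72, no array duplicated another, and the number of arrays limits the precision. The members and lists were chosen with earlier results of these data known. Named were the 10 genes, Notch1, Insm1 and Rest, in each list the genes past the threshold or else that with the largest change, and the 3 genes nearest to each changed gene; others were named after their values were seen. Promoter sequences are RefSeq's. Gene coordinates are not given, as no build is stated for the array.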

Additional observations from a re-analysis of the deposited data

How the results depend on the processing

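Of the 15 alternatives, none changed the direction of Tph1, Th, Gad1, Slc18a1, Gch1, Abat or Slc6a11. Of the 10 genes, 0 rose in any alternative, and the number that fell was 1 without moderation of the variance and 2 to 4 with 1 array left out. Without moderation, Th kept its call (adjusted p = 0.0357), while Tph1 (adjusted p = 0.081), Gad1 (0.162), Gch1 (0.051), Insm1 (0.101), Isl1 (0.0581) and Cdca7l (0.105) lost theirs, 0 of the other pathway genes fell, and over all genes 402 rose and 196 fell, against 848 and 726 with moderation. Of the other pathway genes, 2 fell with dim genes left out or with an intensity trend, the second being Pdxp. Over all genes, 1130 fell with dim genes left out (15596 genes kept) and 1227 with an intensity trend, and 480 rose and 226 fell with all probe sets tested. With 1 array left out, 548 to 709 genes rose and 275 to 585 fell, while 2 of the other pathway genes rose and 1 fell each time. The causes were not tested. Replicate numbers are shared between the groups, and whether they pair the arrays was not settled. Deviations from the group means correlated by 0.23, 0.0083 and 0.20 for numbers 1, 2 and 3. Between unlike numbers they correlated by -0.23 to 0.058. N1ICD replicates 1 and 3 correlated best with the control of the same number, and N1ICD replicate 2 with control replicate 3 (0.022). With the replicate block, 3 of the 10 genes fell and 0 rose, 2 of the other pathway genes rose and 1 fell, and over all genes 814 rose and 704 fell. Both group means of Tph2, Dbh, Maob and Gad2, and the N1ICD means of Gad1 and Slc18a1, lay below every array median. RMA compresses changes near background, which was not measured.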
